A study of Mus musculus with 21 samples.

Results

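The genes of acid and base transport in intercalated cells of the kidney were followed in the kidney RNA of 17 female mice. The 10 genes Atp6v1b1, Atp6v0a4, Atp6v1g3, Atp6v0d2, Slc4a1, Slc26a4, Slc4a9, Rhcg, Car2 and Foxi1 were found by symbol in the deposited list of gene names and linked by Ensembl identifier to the count tables, where 10 of 10 were present among 20634 genes. All mice were apoE knockouts on the C57BL/6J background, started their diets at 4 weeks of age and were 18 weeks old after 14 weeks of feeding. The 5 Con mice received chow, the 6 Ade mice chow with 0.2% adenine, which induces chronic kidney disease, and the 6 Ade + IMC mice chow with 0.2% adenine and 0.06% iodomethylcholine (IMC), an inhibitor of the formation of trimethylamine by gut bacteria. The study asked how IMC acts on adenine-induced kidney disease. Every mouse, controls included, lacked apoE and was of 1 sex and 1 age, and the 4 mice given chow with IMC were not analysed here.

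Intercalated cells are the acid-base cells of the connecting tubule and collecting duct. Type A cells secrete protons into the urine through an apical vacuolar H+-ATPase and return bicarbonate to the blood through the basolateral anion exchanger AE1 (Slc4a1), whereas type B cells secrete bicarbonate through pendrin (Slc26a4) and carry AE4 (Slc4a9). Cytosolic carbonic anhydrase II (Car2) supplies both protons and bicarbonate, Rhcg carries ammonia, and the forkhead factor Foxi1 is needed for intercalated cells to form. In humans, loss of the H+-ATPase subunits B1 or a4, of AE1 in kidney or of FOXI1 causes distal renal tubular acidosis.

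The depth per mouse, counted in reads on genes, was between 7716126 and 11680809 in the Con group, between 5444833 and 7673215 in the Ade group and between 5728589 and 8305968 in the Ade + IMC group. Levels are given as CPM, the usual scaling of counts to a common library size, here the size adjusted by TMM (trimmed mean of M-values), and a gene was called changed at an adjusted p-value below 0.1. Each of the 10 genes was counted at least 139 times in each mouse, which does not show in which cells it was made. In whole-tissue RNA, fewer intercalated cells and less RNA per cell cannot be told apart. The library of Ade + IMC mouse 311 stood apart from those of its group. The chi-square of its counts against each of the others, divided by the degrees of freedom, was between 40.9 and 69.6, against 9.06 to 31.1 for the other pairs of that group. Leaving mouse 311 out changed the call of none of the 10 genes in Ade + IMC versus Con or Ade + IMC versus Ade.

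Foxi1, a forkhead factor, was among the genes followed. Its part in the changes of the other genes in adenine-fed mice was not tested. Rhcg and Atp6v1g3 also fell in these mice, but their promoters are not printed. Those of 3 other genes that fell are shown as examples. These are the 250 bases before the start of the gene in RefSeq (GRCm38.p6), read 5′ to 3′ on the strand of the gene, with the letters TGTTTAC, a common core of forkhead binding sites, in capitals where they occurred.
Atp6v1b1 (chr6:83742767-83743016, plus strand): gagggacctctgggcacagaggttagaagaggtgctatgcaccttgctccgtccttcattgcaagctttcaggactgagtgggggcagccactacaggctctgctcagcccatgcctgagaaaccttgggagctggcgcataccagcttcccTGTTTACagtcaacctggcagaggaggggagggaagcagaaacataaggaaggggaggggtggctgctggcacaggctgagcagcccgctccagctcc
Atp6v0a4 (chr6:38124587-38124836, minus strand): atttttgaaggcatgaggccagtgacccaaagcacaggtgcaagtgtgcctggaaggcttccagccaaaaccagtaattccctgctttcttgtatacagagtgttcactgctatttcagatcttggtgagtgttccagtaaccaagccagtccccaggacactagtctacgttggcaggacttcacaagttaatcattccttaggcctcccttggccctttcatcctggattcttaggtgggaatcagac
Slc26a4 (chr12:31559985-31560234, minus strand): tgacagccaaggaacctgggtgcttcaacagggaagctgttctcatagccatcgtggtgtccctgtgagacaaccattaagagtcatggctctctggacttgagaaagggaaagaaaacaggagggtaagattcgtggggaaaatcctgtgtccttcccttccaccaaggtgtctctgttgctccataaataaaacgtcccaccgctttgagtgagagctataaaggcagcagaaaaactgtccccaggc
Promoter sequence was at hand for 6 of the 10 genes, these 3 and Atp6v1g3, Rhcg and Foxi1. TGTTTAC, searched on both strands, was in 1 of the 6, Atp6v1b1, where it began 98 bases before the start, and in 3.17% of all 32851 promoters of the same length. This match is a description of letters and not of a bound site.

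Per kilobase of exon, which allows levels of different genes to be compared, Car2 was the highest of the 10 in the Con group with 195 ± 11.4 CPM per kb (SD, n = 5). Rhcg followed with 85.8 ± 6.22 and Atp6v0a4 with 82.9 ± 7.07 CPM per kb, and these overlapped each other but neither Car2 above nor Atp6v1b1 below, at 45.1 ± 2.72 CPM per kb. From Atp6v1b1 down, each gene overlapped the next in the order Slc26a4, Atp6v1g3, Atp6v0d2, Foxi1, Slc4a9 and Slc4a1, the last at 22.6 ± 4.15 CPM per kb. In the Ade group Car2 remained first without overlap (141 ± 7.90 CPM per kb, SD, n = 6), while Slc26a4 stood eighth with 13.4 ± 5.05 and Slc4a1 last with 7.35 ± 3.24 CPM per kb. In the Ade + IMC group each gene overlapped its neighbours in the order, Car2 and Rhcg included.

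With adenine in the diet, 9 of the 10 genes were called lower than in the Con mice and Atp6v0d2 was not called. Of the 14612 genes tested, 32.2% were called lower. The median log2 fold change of the 10 genes was -0.96, against 0.02 over all genes tested, and the CPM ranges of 8 of them did not overlap between the groups, which held in the same direction for 20% of all genes. The summed level of the 10 genes was between 1729 and 2007 CPM in the Con mice and between 911 and 1251 CPM in the Ade mice.

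**Figure D1:**
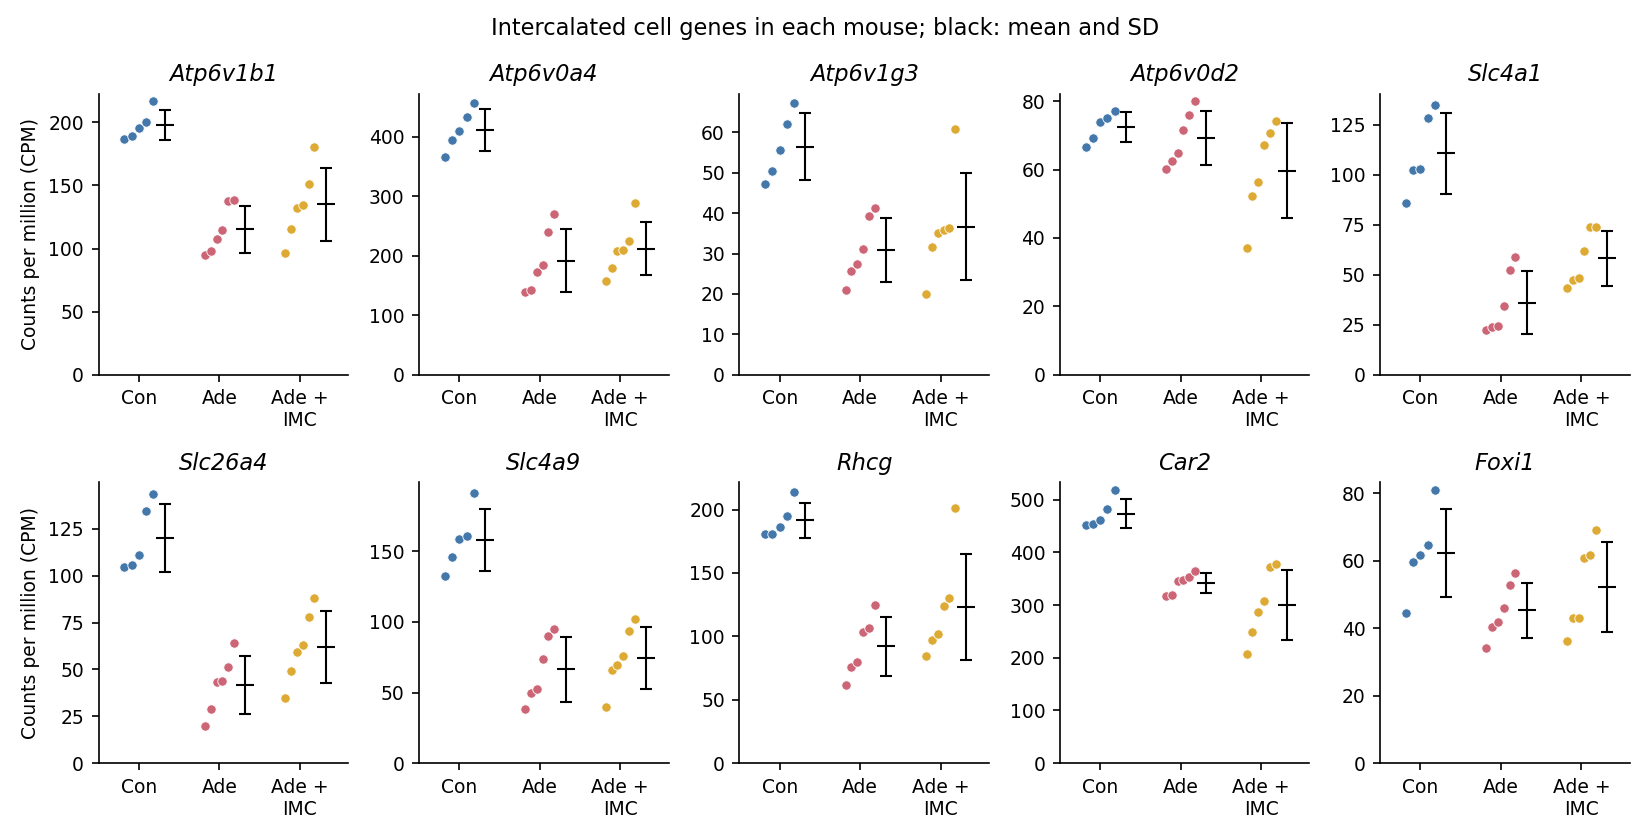
Level in CPM (vertical axes, from 0) of the 10 genes in each mouse of the Con (blue), Ade (red) and Ade + IMC (yellow) groups, with 1 point per mouse sorted by value and the group mean with its SD in black. The Ade mice lie below the Con mice without overlap in 8 panels, and overlap them for Atp6v0d2 and Foxi1.

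Among the H+-ATPase subunits, Atp6v0a4 (ENSMUSG00000038600, chr6:38048483-38124586) encodes a4, the membrane subunit of the distal nephron pump. It stood at 409.8, 394, 366, 457 and 434 CPM in the Con mice and between 139 and 270.2 CPM (median 178) in the Ade mice. Each Ade mouse was below each Con mouse, and the log2 fold change was -1.10 (SE 0.16, adjusted p = 7.00e-05, edgeR). Of its 4973 exonic bases, 321 are shared with Tmem213 on the opposite strand and D630045J12Rik on the same strand, so that some reads may belong to these genes.

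Atp6v1b1 (ENSMUSG00000006269, chr6:83742990-83758855) encodes B1, the nucleotide-binding subunit of the peripheral domain in intercalated cells. Its level was 189, 195, 187, 200.3 and 217 CPM in the Con mice and between 94.8 and 138 CPM (median 111) in the Ade mice, again without overlap (log2 fold change -0.77, SE 0.11, adjusted p = 3.97e-05, edgeR). Atp6v1g3 (ENSMUSG00000026394, chr1:138273738-138289462), the kidney form of the stalk subunit G, was at 47.1, 55.6, 50.4, 61.9 and 67.3 CPM in the Con mice and between 21.0 and 41.2 CPM (median 29.3) in the Ade mice. Its log2 fold change was -0.87 (SE 0.16, adjusted p = 0.000404, edgeR), with no Ade mouse reaching the lowest Con mouse.

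Atp6v0d2 (ENSMUSG00000028238, chr4:19876841-19922605), the d2 subunit that joins the membrane and peripheral domains of the pump, was the subunit that was not called. It was at 69.3, 75.1, 66.6, 77.0 and 73.9 CPM in the Con mice and between 60.2 and 80.1 CPM (median 68.3) in the Ade mice, and the groups overlapped. The log2 fold change of -0.06 (SE 0.09) had an adjusted p of 0.576 (edgeR). Atp6v0d2 is also a gene of osteoclasts and macrophages. The 13 macrophage and osteoclast genes followed here were all called higher in the Ade group (35.1% of all genes were), with a median log2 fold change of 3.48, and their summed level was between 306 and 346 CPM in the Con mice and between 1976 and 3325 CPM in the Ade mice. None of the 13 was at 0 in the Con group mean, and the lowest was Gpnmb, a gene of lysosome-rich macrophages, with 0.888 ± 0.751 CPM in the Con mice (SD, n = 5) and 136 ± 38.6 CPM in the Ade mice (SD, n = 6). Lyz2, the lysozyme of macrophages, was at 36.1 ± 8.58 CPM in the Con mice and 897 ± 188 CPM in the Ade mice. The part of these 13 genes' cells in the level of Atp6v0d2 was not tested.

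The 3 anion exchangers had the largest log2 fold changes of the 10 genes. Slc4a1 (ENSMUSG00000006574, chr11:102348824-102366203) stood at 135, 128, 103, 102 and 85.7 CPM in the Con mice and between 22.3 and 58.7 CPM (median 29.4) in the Ade mice. The Ade mice were all below the Con mice, at 32.5% of the Con mean (log2 fold change -1.62, SE 0.25, adjusted p = 8.59e-05, edgeR). Slc4a1 is also the band 3 protein of red cells, and the kidney transcript starts at an internal promoter, which gene-level counts do not separate. Of 9 red cell genes in the tables, the 5 that passed the filter on low counts were called lower (32.2% of all genes were), with a median log2 fold change of -2.19. The summed level of the 9 was between 185 and 250 CPM in the Con mice, between 17.6 and 105 CPM in the Ade mice and between 82.6 and 228 CPM in the Ade + IMC mice. Hbb-bs, a beta-globin, was at 144 ± 18.1 CPM in the Con mice (SD, n = 5) and 29.4 ± 19.9 CPM in the Ade mice (SD, n = 6), and Hbb-bt, another beta-globin, at 21.5 ± 3.07 and 4.47 ± 3.68 CPM, whereas the red cell membrane gene Rhag had between 0 and 3 counts in every mouse. Epb42, another red cell membrane gene, did not pass the filter and lay the other way, at 0.546 ± 0.327 CPM in the Con mice (SD, n = 5) and 1.67 ± 0.630 CPM in the Ade mice (SD, n = 6), with 2 to 16 counts per mouse and overlapping groups. In some fits with 1 mouse left out Epb42 passed the filter and was called higher (log2 fold change 1.34 to 1.88, adjusted p between 0.00221 and 0.0125, edgeR). With these few counts it could pass only through the Ade mice, where it was higher, so no conclusion is drawn from these calls. The part of red cells in the level of Slc4a1 was not tested.

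Slc26a4 (ENSMUSG00000020651, chr12:31519827-31559969), the chloride/bicarbonate exchanger of type B cells, was at 106, 111, 105, 135 and 144 CPM in the Con mice and between 19.8 and 63.9 CPM (median 43.4) in the Ade mice. The groups did not overlap, and the Ade mean was 34.8% of the Con mean (log2 fold change -1.52, SE 0.23, adjusted p = 7.46e-05, edgeR). Slc4a9 (ENSMUSG00000024485), the basolateral exchanger of type B cells, was at 132, 146, 159, 161 and 191 CPM in the Con mice and between 38.6 and 95.1 CPM (median 63.0) in the Ade mice. It too fell without overlap (log2 fold change -1.24, SE 0.21, adjusted p = 0.000163, edgeR). Thus Slc4a1, whose red cell part was not tested, and both exchangers of type B cells were lower.

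Rhcg (ENSMUSG00000030549, chr7:79593363-79617657), the ammonia channel of the collecting duct, was at 181, 186, 195, 181 and 214 CPM in the Con mice and between 61.5 and 124 CPM (median 91.6) in the Ade mice. No Ade mouse reached the Con range (log2 fold change -1.05, SE 0.15, adjusted p = 5.48e-05, edgeR). Car2 (ENSMUSG00000027562, chr3:14886273-14900770) was at 452, 461, 454, 482 and 518 CPM in the Con mice and between 317 and 365 CPM (median 347) in the Ade mice. Its fall was smaller, to 72.1% of the Con mean, but the Ade mice lay close together and below all Con mice (log2 fold change -0.47, SE 0.08, adjusted p = 0.000249, edgeR). Car2, like Atp6v0d2, is also made by other cells, red cells and osteoclasts among them.

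Foxi1 (ENSMUSG00000047861, chr11:34204338-34208089) was at 64.7, 59.7, 44.5, 81.1 and 61.8 CPM in the Con mice and between 34.1 and 56.5 CPM (median 44.0) in the Ade mice. The groups overlapped through the lowest Con mouse, and the log2 fold change was -0.46 (SE 0.15, adjusted p = 0.0171, edgeR).

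**Figure D2:**
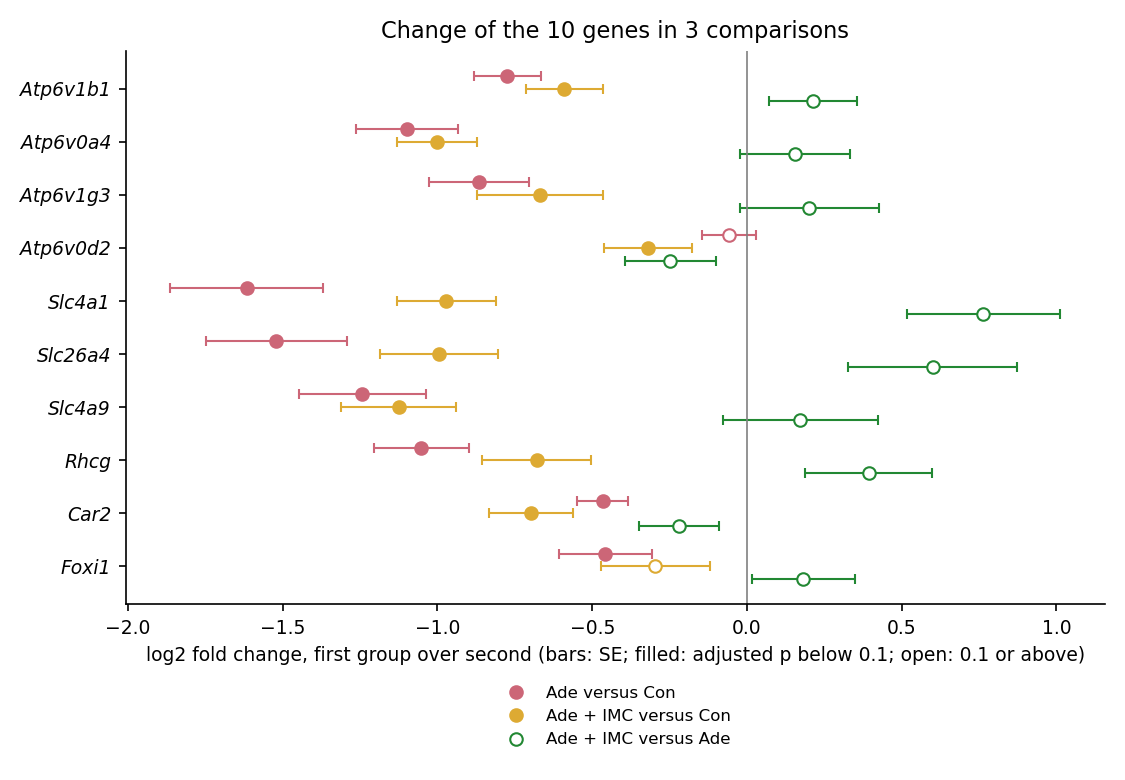
Log2 fold change (horizontal axis) of the 10 genes in 3 comparisons, Ade versus Con (red) and Ade + IMC versus Con (yellow) from edgeR and Ade + IMC versus Ade (green) from limma, with the SE as bars, filled points for an adjusted p below 0.1 and open points otherwise. The red points run from -1.62 (Slc4a1) to -0.06 (Atp6v0d2), and every green point is open.

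Since each of the 4 H+-ATPase subunits has widely expressed isoforms, its share among the isoforms of the same subunit, per kb of exon, was also compared. A share is taken within 1 library and so does not depend on the scaling between libraries. There were 15 such comparisons, by two-sided exact permutation tests with Benjamini-Hochberg (BH) adjustment over the 15, and 0.00216 is the smallest p-value that these designs can give. In the Con group Atp6v0a4 made up 72.5% ± 1.84 of the a subunits (SD, n = 5), next to Atp6v0a1, Atp6v0a2 and Tcirg1. In the Ade group its share was 41.2% ± 9.58 (SD, n = 6), with the mice between 30.9% and 54.6% and no overlap with the Con mice, between 70.8% and 74.5% (exact permutation p = 0.00216, BH-adjusted p = 0.0108). Tcirg1, the a3 subunit of osteoclasts and macrophages, rose from 37.1 ± 4.25 to 138 ± 33.6 CPM (log2 fold change 1.91, adjusted p = 5.47e-07, edgeR) and Atp6v0a1 by 0.23 on the log2 scale (adjusted p = 0.00752, edgeR). With Tcirg1 left out of the sum, the share of Atp6v0a4 was 78.1% ± 1.61 in the Con group and 60.5% ± 6.40 in the Ade group (exact permutation p = 0.00216, BH-adjusted p = 0.0108).

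The share of a further subunit was lower, and those of the last 2 were not called. Atp6v1g3 made up 40.5% ± 2.28 of the G subunits in the Con group and 32.2% ± 3.68 in the Ade group (exact permutation p = 0.0108, BH-adjusted p = 0.0271). The widely expressed Atp6v1g1 fell as well, from 46.2 ± 4.41 to 32.9 ± 4.45 CPM (log2 fold change -0.48, adjusted p = 0.00115, edgeR). Atp6v1b1 made up 37.9% ± 1.36 of the B subunits in the Con group and 36.2% ± 2.68 in the Ade group, a difference of -1.69 percentage points that was not called (exact permutation p = 0.253, BH-adjusted p = 0.380). Its widely expressed partner Atp6v1b2 had fallen as well, by 0.68 on the log2 scale (adjusted p = 4.32e-05, edgeR). Atp6v0d2 made up 30.0% ± 2.14 of the d subunits in the Con group and 31.8% ± 4.17 in the Ade group (exact permutation p = 0.372, BH-adjusted p = 0.430), and Atp6v0d1 was not called (log2 fold change -0.19, adjusted p = 0.120, edgeR). It was called lower when the fit was blocked by the leading digit of each mouse's number (log2 fold change -0.23, adjusted p = 0.0545, edgeR), by DESeq2, with median of ratios size factors and without Con mouse 201 or Ade mouse 407.

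**Figure D3:**
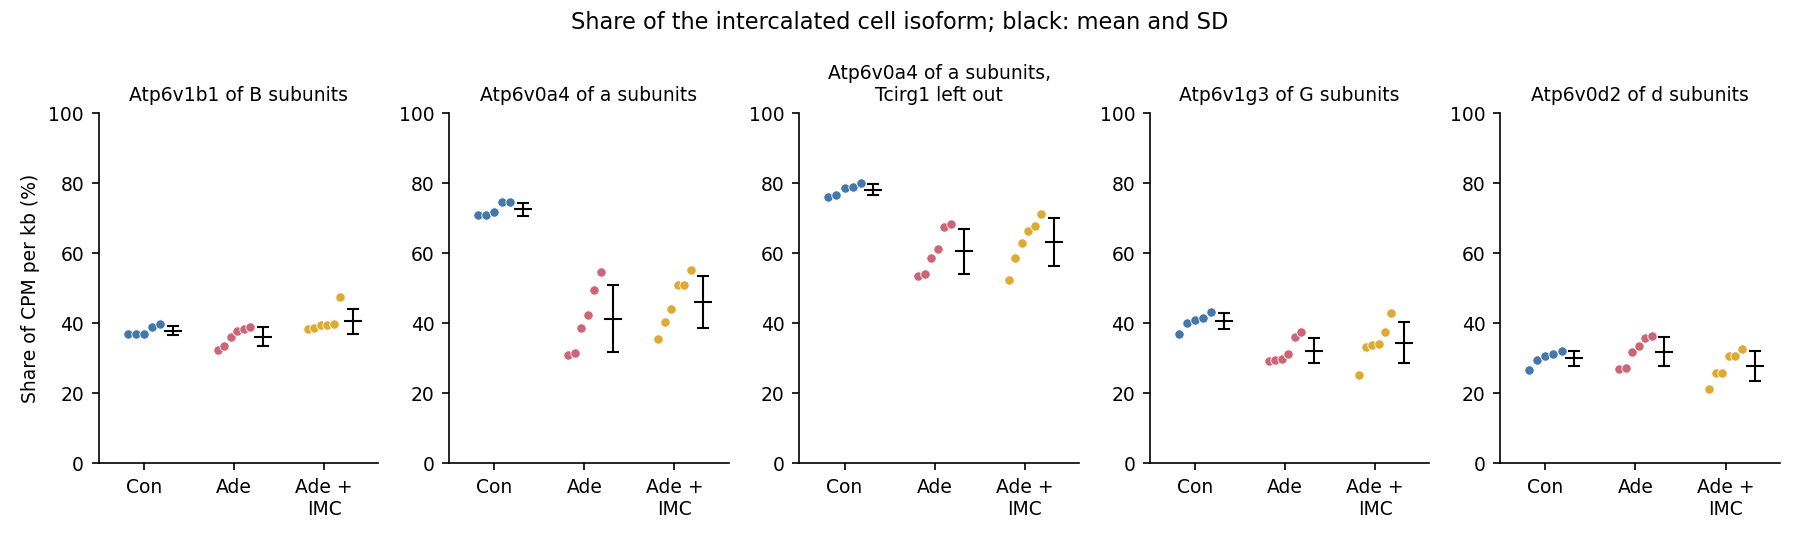
Share in percent (vertical axes, 0 to 100) of the CPM per kb of a subunit's isoforms that came from the intercalated cell isoform, with 1 point per mouse in the Con (blue), Ade (red) and Ade + IMC (yellow) groups and the mean with its SD in black. The share of Atp6v0a4 is between 70.8% and 74.5% in the Con mice and between 30.9% and 54.6% in the Ade mice, and remains below the Con mice with Tcirg1 left out.

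Of 20 other H+-ATPase genes tested, 11 were called lower and 3 higher in the Ade group (32.2% and 35.1% of all genes), with a median log2 fold change of -0.39. With the same block 13 were called lower, by the addition of Atp6v0d1 and Atp6ap1 (adjusted p = 0.0682, edgeR, and 0.181 without the block). Atp6v1c2, a C subunit isoform of kidney and lung, fell by 1.20 on the log2 scale (adjusted p = 8.18e-05, edgeR), and the 3 that rose were Tcirg1, Atp6v1g2 and Atp6v0a1. Of 14 other intercalated cell genes, 9 were called lower and 1 higher, with a median of -0.59. Oxgr1, the receptor for 2-oxoglutarate in type B cells, fell by 1.46 (adjusted p = 7.32e-05, edgeR) and Insrr, an alkali-sensing receptor, by 1.28 (adjusted p = 0.000180, edgeR). The gene called higher was P2ry14 (log2 fold change 0.59, adjusted p = 0.0750, edgeR), whose groups overlapped and whose call was lost without Con mouse 201, 302 or 403 or Ade mouse 208, 308, 408 or 409 (adjusted p up to 0.180).

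The neighbours of intercalated cells along the nephron were lower too. Of all genes tested, 32.2% were called lower and 35.1% higher. Of 8 principal cell genes tested 7 were called lower (median log2 fold change -1.25), with the water channels Aqp4 (-4.01) and Aqp2 (-1.28) the largest. Of 8 genes of the distal convoluted and connecting tubule 6 were called lower (median -0.72), led by Pvalb (-1.76) and Klk1 (-1.08). Of these 6, Slc8a1 (-0.55, adjusted p = 0.0851, edgeR) lost its call without Con mouse 201, 202 or 302 or Ade mouse 207, 208, 308 or 409 (adjusted p up to 0.179) and with upper-quartile scaling. Of 7 thick ascending limb genes 5 were called lower and 1 higher (median -0.79), led by Egf (-2.19) and Slc12a1 (-1.06). Of these 5, Ptger3 (-0.42, adjusted p = 0.0751, edgeR) lost its call without Con mouse 201, 202 or 301 or Ade mouse 207, 208 or 308 (adjusted p up to 0.253) and with upper-quartile scaling, and blocking by the digit added Umod (adjusted p = 0.0582, edgeR). All 8 proximal tubule genes tested were called lower (median -2.08), among them Slc5a12 (-2.87) and the endocytic receptor Lrp2 (-2.65). Of 8 genes by which the proximal tubule reclaims bicarbonate and makes ammonia, 6 were called lower and 1 higher (median -1.09), with the bicarbonate cotransporter Slc4a4 at -1.64 and the carbonic anhydrase Car14 at -1.59. The median of the 10 intercalated cell genes, -0.96, lay between those of the thick ascending limb and of the proximal acid-base genes. These medians were not compared by a test.

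**Figure D4:**
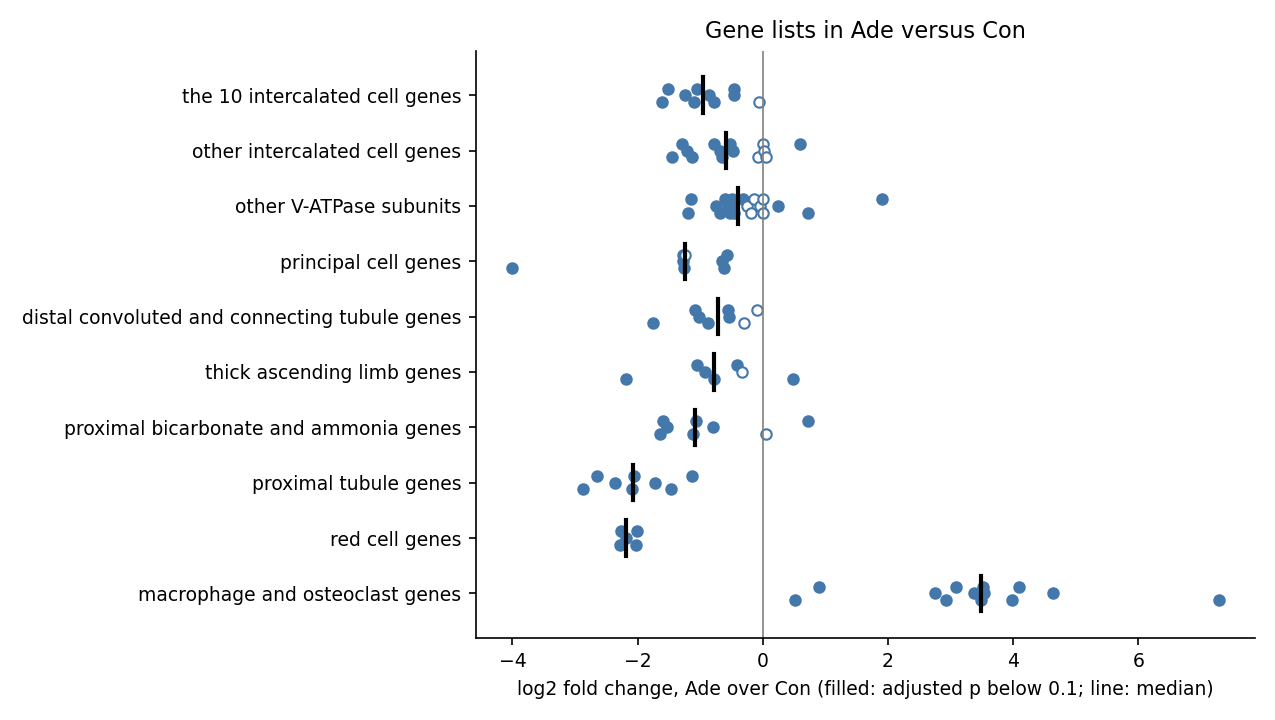
Log2 fold change of Ade over Con from edgeR (horizontal axis) for the genes of each list (rows), with filled points for an adjusted p below 0.1, open points otherwise and a black line at the median of the list. The 10 intercalated cell genes have a median of -0.96, the 8 proximal tubule genes -2.08 and the 13 macrophage and osteoclast genes 3.48.

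With IMC added to adenine, 9 of the 10 genes were again called lower than in the same Con mice, where 32.3% of the 14578 genes tested were. Both comparisons use the 5 Con mice, so their values are only set side by side. The median log2 fold change of the 10 genes was -0.69 (-0.02 over all genes tested), and 6 of the 10 had ranges that did not overlap (16.2% of all genes). Slc4a9 had the largest fall, -1.12 (SE 0.19), and Atp6v0a4 followed at 51.3% of the Con mean, with Slc26a4 at -0.99 (SE 0.19) and Slc4a1 at -0.97 (SE 0.16). Car2 was at -0.70 (SE 0.14), Rhcg at -0.68 (SE 0.18), Atp6v1g3 at -0.67 (SE 0.20) and Atp6v1b1 at -0.59 (SE 0.12), with adjusted p-values of 0.0134 or less for these 8 genes (edgeR). The genes not called differed between the 2 comparisons. Foxi1 was not called here (log2 fold change -0.30, SE 0.18, adjusted p = 0.168, edgeR), and leaving out 1 mouse moved it from -0.40 (without Con mouse 301, adjusted p = 0.0686) to -0.19 (without Con mouse 302, adjusted p = 0.401). Atp6v0d2 was called lower (log2 fold change -0.32, SE 0.14, adjusted p = 0.0692, edgeR), a call that was lost without Con mouse 202, 302 or 403 or Ade + IMC mouse 212 or 410 (adjusted p between 0.104 and 0.134) and with upper-quartile scaling (adjusted p = 0.188). Without mouse 311 its log2 fold change was -0.21, still called. The share of Atp6v0a4 among the a subunits was 46.1% ± 7.49 in the Ade + IMC group (SD, n = 6; exact permutation p = 0.00216 against Con, BH-adjusted p = 0.0108), and that of Atp6v1g3 among the G subunits was 34.4% ± 5.89 (exact permutation p = 0.0498, BH-adjusted p = 0.107).

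Ade + IMC against Ade addresses the effect of IMC in adenine-fed mice. By limma on log2(normalized count + 1), 0 of the 10 genes were called (0% of the 14696 genes tested), and edgeR and DESeq2 on the recovered reads also called 0 of the 10. The authors reported many more changed genes in this comparison, by DESeq2 at the same threshold, and the reason for the difference was not tested. At an unadjusted p below 0.05 Slc4a1 and Slc26a4 were higher, 2 of the 10, where 3.37% of all genes were. Slc4a1 had a mean of 429 ± 98.2 normalized counts in the Ade + IMC group and 266 ± 117 in the Ade group (SD, n = 6 each), a log2 difference of 0.76 (SE 0.25, adjusted p = 0.711, limma). In CPM the Ade + IMC mice were between 43.4 and 74.1 (median 55.1), and the groups overlapped. Slc26a4 had 458 ± 140.3 normalized counts in the Ade + IMC group and 309 ± 117 in the Ade group, a log2 difference of 0.60 (SE 0.27, adjusted p = 0.731, limma), and its Ade + IMC mice were between 34.6 and 88.2 CPM (median 61.2).

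Mouse numbers begin with 2, 3 or 4, and with that digit as a block Slc4a1 was called higher (log2 difference 0.88, SE 0.14, adjusted p = 0.0599, limma), as were 0.497% of all genes, and the meaning of this digit is not given. Within the digits its difference in log2 CPM was 0.97 (digit 2), 1.18 (digit 3, with 1 Ade mouse) and 0.64 (digit 4). Of the 6 red cell genes tested, 5 were higher and 1 lower in the mean, with a median log2 difference of 1.51, and 0 were called without the block and 4 called higher with it. Hbb-bs was at 1.60 (SE 0.37, adjusted p = 0.601, limma) and, with the block, 1.73 (adjusted p = 0.0426), and DESeq2 also called it higher. Epb42 was at -0.61 (SE 0.39, adjusted p = 0.785, limma) and, with the block, -0.73 (adjusted p = 0.417), opposite to Slc4a1. The part of red cells in the difference of Slc4a1 was not tested here either. Genes of the collecting duct were also called higher with the block, 1 of the 14 other intercalated cell genes and 2 of 8 principal cell genes. Aqp6, a channel of type A cells, was between 101 and 163 CPM (median 112) in the Ade + IMC mice and between 65.3 and 96.5 CPM (median 77.1) in the Ade mice, without overlap (log2 difference 0.60, adjusted p = 0.601, limma, and 0.0599 with the block). Aqp2 was at 0.75 (adjusted p = 0.601, limma, and 0.0602 with the block), called higher by DESeq2 too, and Aqp4 at 1.31 (adjusted p = 0.711, limma, and 0.0937 with the block).

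The remaining 8 genes differed by 0.39 or less on the log2 scale. Rhcg was at 0.39 (SE 0.21), Atp6v1b1 at 0.21 (SE 0.14), Atp6v1g3 at 0.20 (SE 0.22), Foxi1 at 0.18 (SE 0.17), Slc4a9 at 0.17 (SE 0.25) and Atp6v0a4 at 0.16 (SE 0.18), all higher in the mean of the Ade + IMC mice. Car2 was at -0.22 (SE 0.13) and Atp6v0d2 at -0.25 (SE 0.15), lower in the mean. None of these 8 was called on leaving out 1 mouse at a time, and none changed sign, but their sizes depended on single mice. Slc4a9 was between 0.030 (without Ade mouse 207) and 0.34 (without mouse 311), Atp6v1g3 between 0.044 (without mouse 412) and 0.36 (without mouse 311) and Atp6v0a4 between 0.061 (without mouse 310) and 0.27 (without Ade mouse 407). Foxi1 was between 0.097 and 0.28 and Atp6v1b1 between 0.13 and 0.30, each lowest without mouse 412 and highest without mouse 311, and Rhcg was between 0.24 (without mouse 412) and 0.49 (without Ade mouse 407). Without mouse 311 Car2 and Atp6v0d2 were both at -0.12. Thus, with every mouse included, 8 of the 10 differences were above 0, as were 51.6% over all genes, and the ranges of all 10 genes overlapped (0.129% of all genes were higher and 0.0885% lower without overlap). Genes of other lists also differed in the mean. Of 7 thick ascending limb genes 6 were higher (median 0.34) and of 8 proximal tubule genes 6 (median 0.43), against a median of 0.19 for the 10 genes. Of 8 distal convoluted and connecting tubule genes 6 were higher (median 0.24) and of 8 proximal bicarbonate and ammonia genes 5 (median 0.21). In contrast, 13 of 13 macrophage and osteoclast genes were lower (median -0.26). None of the genes of these lists was called by limma with or without the block. All 8 principal cell genes tested were higher (median 0.47), 2 of them called with the block. The share of Atp6v1b1 among the B subunits was 40.5% ± 3.51 in the Ade + IMC group, against 36.2% ± 2.68 in the Ade group (SD, n = 6 each; exact permutation p = 0.0108, BH-adjusted p = 0.0271), and the difference of 4.37 percentage points was 2.96 without mouse 412 (exact permutation p = 0.0368, not adjusted). The shares of Atp6v0a4, Atp6v1g3 and Atp6v0d2 were not called between these groups (BH-adjusted p of 0.427, 0.487 and 0.188, exact permutation tests).

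The genes also varied among mice of the same group. Relative to the mean of the Con mice in log2 CPM, the median of the 10 genes was -1.33 in Ade mouse 207 and -0.56 in Ade mouse 407. In the Ade + IMC group it was -1.19 in mouse 311, in which all 10 genes were below the Con mean, and -0.23 in mouse 412, in which 6 of 10 were. Mouse 311, whose whole library stood apart, was the lowest of its group for 9 of the 10 genes and mouse 412 the highest for 9.

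**Figure D5:**
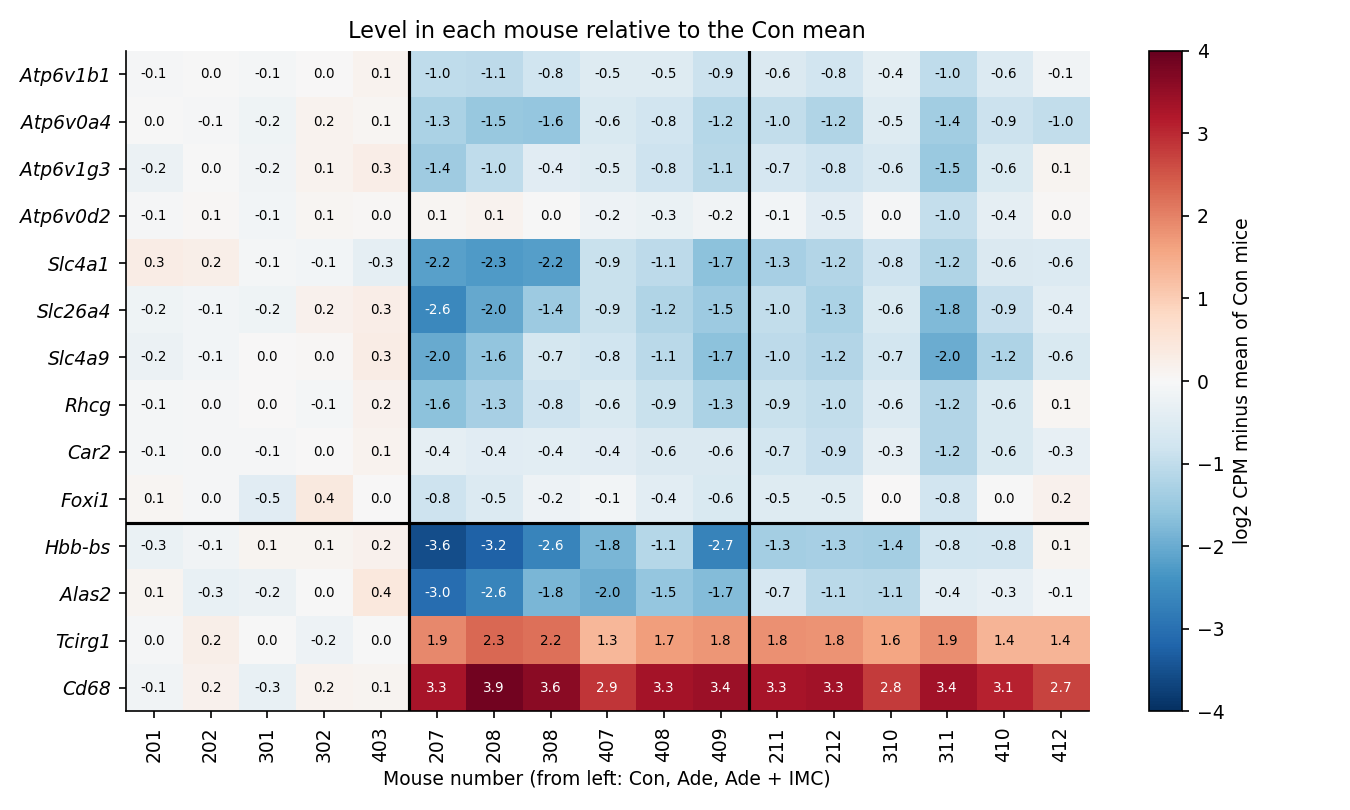
Log2 CPM minus the mean of the Con mice (colour, with the value in each cell) for the 10 genes and, below the line, Hbb-bs and Alas2 (red cells) and Tcirg1 and Cd68 (macrophages), in each mouse (columns). Atp6v0d2 lies near 0 in the Ade mice, while Slc4a1 and Slc26a4 are below 0 in every adenine-fed mouse, and Ade + IMC mouse 412 is the closest of them to the Con mice.

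After centring on the group means, the 45 pairs of the 10 genes had a median Pearson correlation of 0.648 over the 17 mice, between -0.13 and 0.915. Each gene was set against the mean of the other 9. Atp6v1b1 followed it most closely (Pearson r = 0.958, Spearman rho = 0.968) and Atp6v0d2 least (r = 0.419, rho = 0.213). Without mice 311 and 412, which were farthest from the median, r was 0.921 for Atp6v1b1, 0.317 instead of 0.678 for Car2 and -0.218 for Atp6v0d2, so that the relation of Atp6v0d2 rested on these mice. Among 15019 genes with a mean of at least 1 CPM, the 5 outside the set that were most like its mean were Tmem116 (r = 0.962), 2610528J11Rik (r = 0.957), Msra (r = 0.955), Pdzd3 (r = 0.953) and Erich4 (r = 0.952), and without the 2 mice their r was between 0.917 and 0.944. Against the mean of all 10, which includes the gene itself, only Atp6v1b1 (r = 0.965) of the set was above these 5. Slc26a4 came next (r = 0.944), so such likeness was not particular to the set. These correlations are descriptions over mice whose libraries also share depth and tissue composition.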

How the data were processed

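Kidney RNA of 17 mice (5 Con, 6 Ade, 6 Ade + IMC) was analysed, and each mouse was taken as 1 replicate. The authors deposited raw counts per Ensembl gene for the Con and Ade mice. A second table of the authors, for the Ade and Ade + IMC mice, gives a signal, the count divided by the size factor of the median of ratios method of DESeq2. Another deposited table holds gene symbols, which were used, and the authors' own fold changes and p-values, which were not. Total RNA went into Illumina TruSeq libraries for single-end sequencing. The submitters' processing notes list Trimmomatic 0.39, FastQC 0.11.8, Bowtie2 2.2.5, HTSeq 0.9.1 and DESeq2, whereas the methods name STAR on mm10, so the aligner differs between the sources. The annotation and the use of strand are not given in the sources used here.

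Of the normalized values above 0, 100% were whole multiples of the value of 1 read (tolerance 1e-06 reads), and reads recovered in this way were equal to the raw counts for every gene of the 6 Ade mice. Con was compared with Ade and with Ade + IMC by the quasi-likelihood test of edgeR 4.0.16 (TMM, filterByExpr) on counts, and Ade + IMC with Ade by limma-trend (3.58.1) on log2(normalized count + 1), keeping genes whose mean normalized count was 10 or more, in R 4.3.3. P-values were adjusted by Benjamini-Hochberg over all genes tested and called below 0.1. DESeq2 1.42.0, other scalings, pseudocounts and filters, a block by the leading digit of the mouse number and leaving out each mouse were alternatives. The tests were tested on simulated data. Gene positions and exon lengths are those of GENCODE on GRCm38, and promoters those of RefSeq.

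The 10 genes and the other gene lists were chosen with earlier results of these data known. The genes named are the 10, the widely expressed isoforms Atp6v1b2, Atp6v0a1, Atp6v0d1 and Atp6v1g1, the 2 called genes with the largest change between Ade and Con in each other list, and the 5 genes most like the mean of the 10. The other genes named, the isoform shares, the TGTTTAC search and the share without Tcirg1 were chosen after the data were seen. Some red cell genes of the lists are not reported here by name. The libraries of a group differed by more than counting noise (chi-square divided by its degrees of freedom was between 3.97 and 69.6, the highest for a pair with Ade + IMC mouse 311). The 10 genes had at least 139 counts each in every mouse, and counting error adds to the spread between mice.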

Additional observations from a re-analysis of the deposited data

Results flagged for a closer look

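In 4 of 111 groups of values, the highest or the lowest mouse lay far from the others by Dixon's criterion, where chance gives about 1 in 20 (5.55), and 0 of the 30 groups of values of the 10 genes were among them. In Ade mouse 407, Aqp4 was at 29.6 CPM, against 6.13 to 13.5 CPM in the other Ade mice, and Lrp2 was at 1799.5 CPM, against 368 to 817 CPM. In Ade + IMC mouse 412, Hbb-bs was at 152 CPM, against 55.4 to 83.6 CPM in the others, and the share of Atp6v1b1 among the B subunits was 47.6%, against 38.3% to 39.7%.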

How the results depend on the processing

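Of the 10 genes, 9 were called lower in Ade versus Con under each alternative run, and 8 to 10 in Ade + IMC versus Con, where only the calls of Atp6v0d2 and Foxi1 moved. Over these 2 comparisons and Ade + IMC versus Ade, 491 of 500 values of the 10 genes kept their direction and their side of the threshold. In Ade + IMC versus Ade, the block by the leading digit of the mouse number raised the genes called higher from 0 to 1 of the 10 (Slc4a1) and all genes called from 0 to 73 higher and 60 lower, and DESeq2 called 20 higher and 16 lower, none of the 10 among them. The block changed no other call of the 10 genes, and in Ade versus Con it added calls of Atp6v0d1, Atp6ap1 and Umod. With upper-quartile scaling the log2 change of Atp6v0d2 in Ade versus Con was 0.0064 instead of -0.06, neither called, and the median of all genes moved from 0.02 to 0.08. In Ade + IMC versus Ade, changes near 0 changed sign for Slc4a4 with the block (0.023) and on leaving out single mice (-0.17 to 0.074), and on leaving out single mice for Atp6v0a1 (-0.088 to 0.018) and Atp6v1b2 (-0.10 to 0.0062), and the cause was not tested. Within each leading digit, 9 of the 10 genes had a lower mean log2 CPM in the Ade than in the Con mice, with 1 Ade mouse under digit 3 and 1 Con mouse under digit 4. Between the adenine-fed groups the SE of the log2 difference of the 10 genes was between 0.13 and 0.27, which limits what could be called.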
